A study of Mus musculus with 30 samples.

Results

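Stool bacteria of wild-type (WT) female mice were compared after co-housing and at weaning. The comparison used 10 of the 30 libraries of the study, 5 after co-housing (libraries 16 to 20) and 5 at weaning (libraries 6 to 10). Its members were the sequence variants with reads in these 10 libraries, without variants named as mitochondria: 414 of the 949 bacterial variants of the series, with 374 in the co-housed WT mice and 261 in the WT mice at weaning. A sequence variant is a distinct 16S rRNA gene sequence over the V4 region, a marker by which bacteria are identified. It is called here by genus and by row number in the deposited table. The 414 variants fell into 85 genera, 43 families and 11 phyla, and 279 of them were Firmicutes and 95 Bacteroidota.

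The study followed WT mice and mice lacking Gpr15l (KO), an epithelial peptide that is the ligand of the lymphocyte receptor GPR15, to ask how genotype and shared housing shape the gut bacteria. After co-housing, WT mice had spent 4 to 5 weeks in cages that also held KO mice, with 2 to 7 mice to a cage. At weaning, WT mice were about 4 weeks old. WT mice kept apart from KO mice over the same weeks were not analysed here, so growing older and sharing a cage with KO mice cannot be told apart. The labels do not follow a mouse across times and give no cage or litter, so mice of a group may share a cage, and p-values speak only of the spread among these libraries.

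The mouse gut at weaning passes from milk to solid food, and its bacteria change with it. Bacteroidales such as Muribaculaceae and Prevotellaceae are anaerobes that break down polysaccharides of the diet and of mucus. Clostridia of the families Lachnospiraceae and Oscillospiraceae are strict anaerobes, many of them spore formers, that ferment fibre and include the main producers of butyrate. Mice eat faeces of their cage mates, so bacteria pass between animals that share a cage.

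The 10 libraries held 300459 bacterial reads. Libraries held 20379 to 38361 reads after co-housing (30383 ± 8747, SD, n = 5) and 15665 to 52398 at weaning (29919 ± 15045, SD, n = 5). Replicates of a group differed far beyond sampling noise, with a chi-square per degree of freedom of 30.9 to 97.0 over 20 pairs. Families expected of mouse stool led in all 10 libraries. Chloroplast, skin genera and rows without a kingdom had 0 reads. Genera common in reagents held 0.0868% of reads after co-housing and 0.0275% at weaning, and they also include genera found in guts.

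Library 19 stood apart from the other co-housed WT libraries. Its mean Bray-Curtis distance, which is 0 for equal and 1 for disjoint compositions, was 0.543 to the other co-housed WT libraries and 0.403 to the WT libraries at weaning. The other 4 co-housed libraries lay nearer to their own group. Library 19 carried 66.4% Bacteroidota and 16.3% Firmicutes, values within or close to the range at weaning, yet held 185 variants, more than 4 of the 5 weaning libraries. The results below were computed with it, and values without it are given where they moved.

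**Figure D1:**
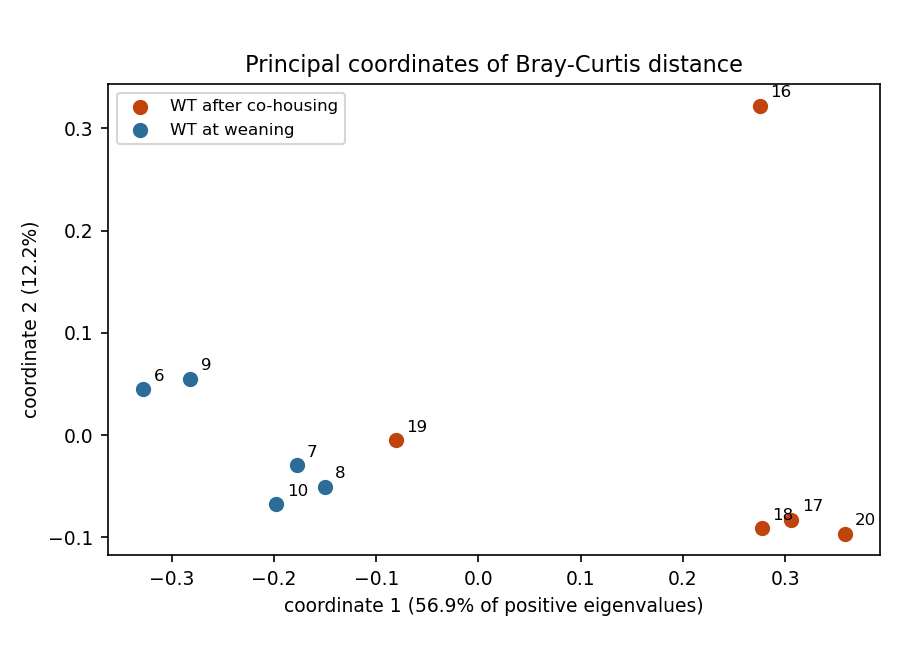
Each point is a library, placed by principal coordinates of Bray-Curtis distances between variant shares; the axes have no unit, and coordinate 1 carries 56.9% and coordinate 2 carries 12.2% of the positive eigenvalues. Co-housed libraries 16, 17, 18 and 20 lie to the right and the 5 weaning libraries to the left, with co-housed library 19 beside the weaning libraries.

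The composition of WT stool differed between the times. Time accounted for 46.1% of the variation in Bray-Curtis distance (exact permutation test, p = 0.00794, the smallest it can give; adjusted over 5 measures 0.0132), and for 59.2% without library 19. The mean distance was 0.573 between a library after co-housing and one at weaning, 0.450 within the co-housed group and 0.315 within the weaning group. Without library 19 it was 0.388 within the co-housed group. Co-housed WT libraries lay at a mean distance of 0.512 from co-housed KO libraries and 0.627 from KO libraries at weaning. WT and KO libraries at weaning lay 0.522 apart on average, close to the 0.512 after co-housing, but single KO libraries differed. The mean distance of KO libraries 1 to 5 at weaning to the weaning WT libraries was 0.759, 0.405, 0.447, 0.372 and 0.625. That of co-housed KO libraries 11 to 15 to the co-housed WT libraries was 0.520, 0.604, 0.551, 0.438 and 0.449. KO library 1, with 54 variants, thus raised the weaning mean. Within the co-housed KO group the mean distance was 0.506.

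Stool of co-housed WT mice held more variants, more evenly spread. At an equal depth of 10491 reads, 218 ± 26.7 variants were expected after co-housing and 135 ± 29.7 at weaning (SD, n = 5 each), a difference of 82.7 (exact two-sided permutation test, p = 0.0159, adjusted 0.0159). The co-housed libraries held 250, 210, 239, 184 and 206 of these, against 123, 113, 186, 119 and 135 at weaning. The groups overlapped only by co-housed library 19 with 184 and weaning library 8, the deepest of the 10, with 186.

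The Shannon index, which rises with the number and evenness of variants, was 3.94 ± 0.194 after co-housing and 3.23 ± 0.170 at weaning (SD, n = 5 each; exact two-sided permutation test, p = 0.00794, adjusted 0.0132). The inverse Simpson index, which weighs the abundant variants most, was 18.2 ± 4.69 after co-housing and 8.51 ± 1.32 at weaning, with the same exact p and adjusted p. Neither index overlapped between the groups. To reach 90% of the reads of a library took 107, 92, 90, 64 and 78 variants after co-housing, against 40, 40, 53, 37 and 41 at weaning.

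**Figure D2:**
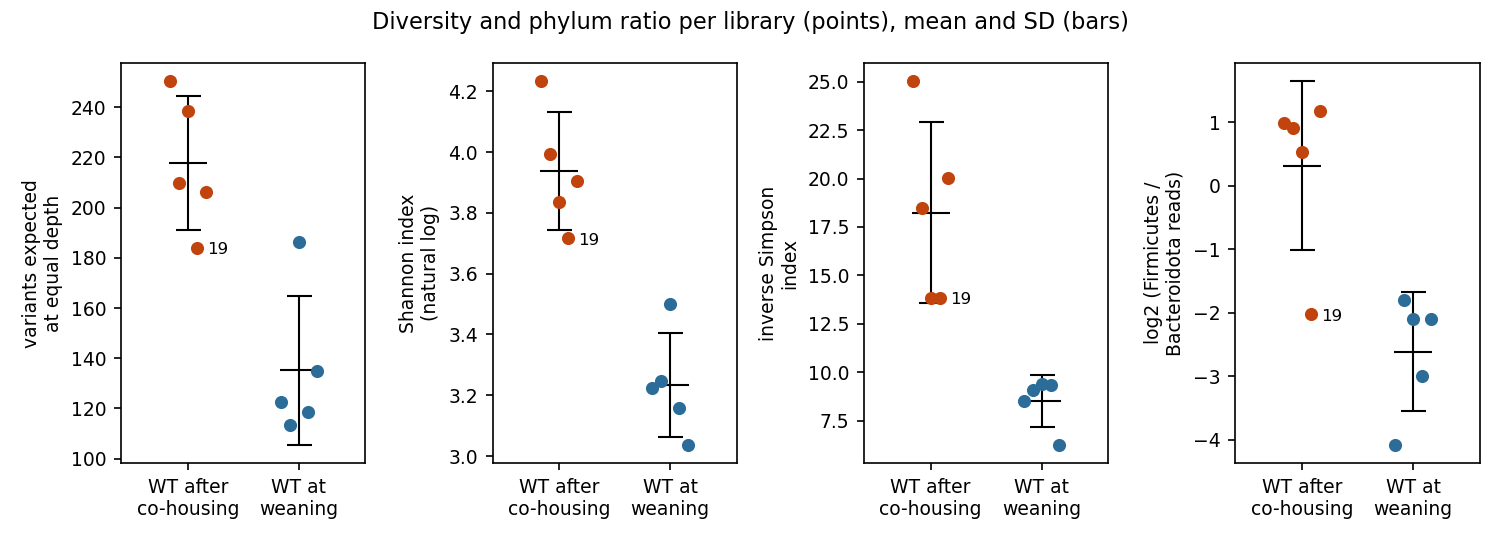
Points are the 5 libraries of each group, with WT after co-housing on the left and WT at weaning on the right of each panel; bars give the mean and SD. The first panel has the number of variants expected at 10491 reads, the second the Shannon index in natural log units, the third the inverse Simpson index and the last the log2 ratio of Firmicutes to Bacteroidota reads, in which co-housed library 19 (-2.02) lies among the weaning libraries.

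Shares of reads are relative, so more cells of a taxon and fewer cells of the rest cannot be told apart. Bacteroidota, which include the polysaccharide-degrading Bacteroidales, held 29.5%, 29.0%, 34.1%, 66.4% and 25.7% of reads after co-housing, against 85.3%, 69.5%, 73.4%, 79.1% and 74.3% at weaning. Firmicutes, which include the Clostridia, held 58.4%, 54.6%, 49.6%, 16.3% and 58.2% after co-housing, against 5.05%, 20.0%, 17.2%, 9.90% and 17.4% at weaning. Co-housed library 19 was thus the lowest in Firmicutes of its group and lay below weaning libraries 7, 8 and 10. Mycoplasmataceae also count as Firmicutes here, with 4.00% in library 19, against 1.40%, 13.6%, 9.05%, 4.57% and 13.2% at weaning. The log2 ratio of Clostridia to Bacteroidales was -2.54 in library 19, above all weaning libraries, which ran from -5.08 to -3.31. The log2 ratio of Firmicutes to Bacteroidota was 0.32 ± 1.33 after co-housing and -2.61 ± 0.94 at weaning (SD, n = 5 each), a difference of 2.93 (exact two-sided permutation test, p = 0.0159, adjusted 0.0159). It was 3.52 without library 19. A ratio within a library does not depend on how libraries are scaled against each other.

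Among the smaller phyla, Proteobacteria averaged 0.786% ± 0.327 after co-housing and 4.88% ± 3.00 at weaning. Deferribacterota, here the mucus dweller Mucispirillum, averaged 2.82% ± 1.98 after co-housing and 0.168% ± 0.114 at weaning. Desulfobacterota, which reduce sulfate, stood at 1.79% ± 0.889 after co-housing and 0.358% ± 0.172 at weaning. Campilobacterota, here Helicobacter, stood at 9.32% ± 3.51 after co-housing and 4.21% ± 2.74 at weaning (SD, n = 5 in each case). Phyla were not tested one by one.

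**Figure D3:**
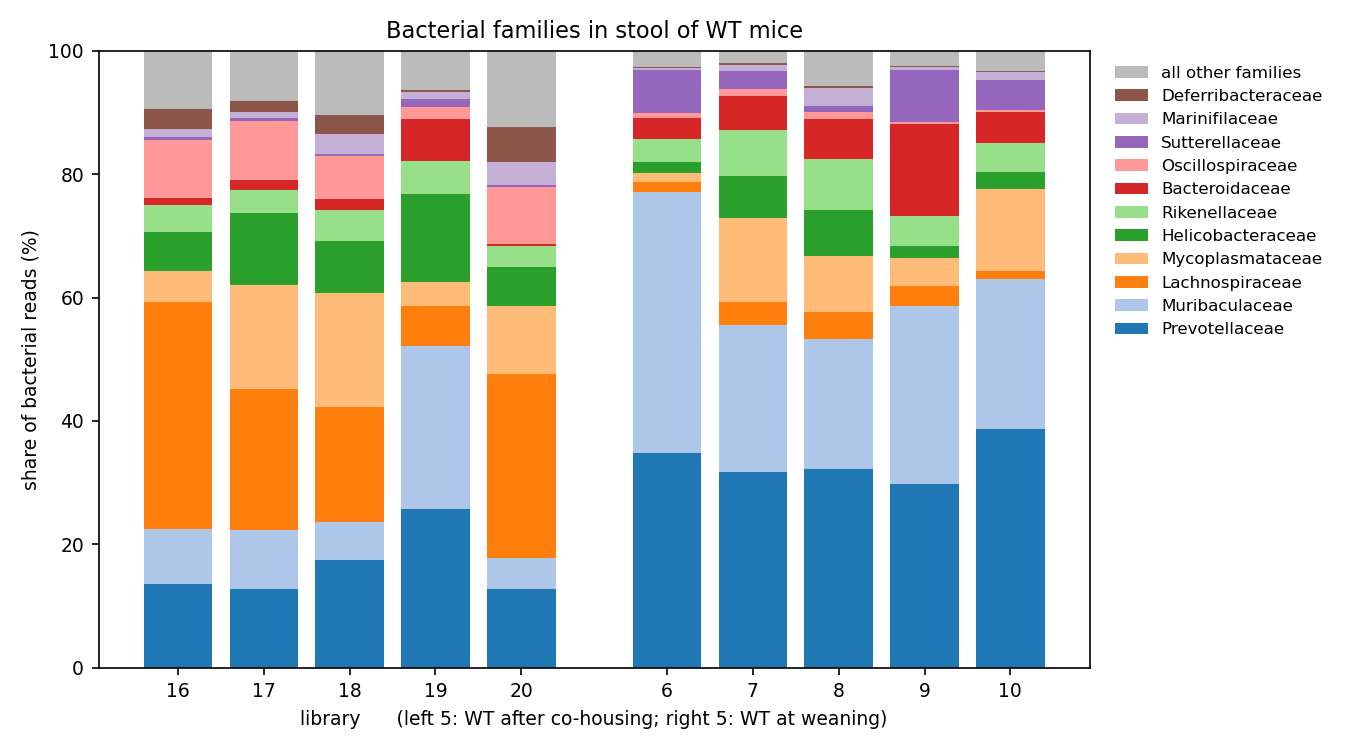
Bars show the share of bacterial reads (%) of the 11 families with the highest mean share over the 10 WT libraries and of all other families together, with the 5 co-housed libraries on the left and the 5 weaning libraries on the right. Lachnospiraceae hold 18.6% to 36.7% in co-housed libraries 16, 17, 18 and 20, against 6.39% in library 19 and at most 4.42% at weaning.

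At the level of families, 35 of the 43 could be tested and 13 of them (37.1%) changed by the quasi-likelihood test of edgeR at an adjusted p under 0.05. Of the 35, 8 rose (22.9%) and 5 fell (14.3%). A fold change is given here as log2 of the level after co-housing over that at weaning, after scaling for composition (TMMwsp), and with its standard error. The scaling matters: with library size in its place the median genus moved up by 0.99 on the log2 scale, and no named genus, family or variant changed the sign of a call under any setting tried.

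Lachnospiraceae rose by a log2 fold change of 2.04 ± 0.55 (edgeR adjusted p = 0.00585). They held 36.7%, 22.9%, 18.6%, 6.39% and 29.8% of reads after co-housing, against 1.69%, 3.75%, 4.42%, 3.17% and 1.38% at weaning, and the groups did not overlap. Oscillospiraceae rose by 2.61 ± 0.67 (adjusted p = 0.00585). Their shares were 9.43%, 9.67%, 6.97%, 1.95% and 9.22% after co-housing, against 0.809%, 1.12%, 1.11%, 0.267% and 0.384% at weaning. Here too library 19 was the lowest of its group and above all weaning libraries.

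Ruminococcaceae, relatives of the Oscillospiraceae that include degraders of plant fibre, rose too, with 1.42% ± 0.740 after co-housing and 0.169% ± 0.0897 at weaning (log2 fold change 2.29 ± 0.68, edgeR adjusted p = 0.00678). Their call was lost with no filter on read counts. Selenomonadaceae rose as well, at 1.85% ± 0.762 after co-housing and 0.299% ± 0.0928 at weaning (1.79 ± 0.68, edgeR adjusted p = 0.0343). This call was lost with no filter on read counts and without library 6, 10 or 16. All reads of the Selenomonadaceae belonged to a lone variant of Quinella, which tested as a genus did not pass, as given below. The other families that rose were Deferribacteraceae, Puniceicoccaceae, Peptococcaceae and Brachyspiraceae, each described through its genus below. The calls of Peptococcaceae and Brachyspiraceae were lost with limma-voom in place of edgeR.

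Prevotellaceae fell, with 13.6%, 12.9%, 17.6%, 25.7% and 12.8% of reads after co-housing, against 34.9%, 31.8%, 32.3%, 29.8% and 38.7% at weaning (log2 fold change -1.85 ± 0.51, edgeR adjusted p = 0.00593). The groups did not overlap. Muribaculaceae fell too, with 8.93%, 9.48%, 6.09%, 26.5% and 5.02% after co-housing, against 42.2%, 23.7%, 21.0%, 28.9% and 24.3% at weaning (-2.09 ± 0.56, adjusted p = 0.00585). Only co-housed library 19 reached the weaning range, and the log2 fold change was -2.80 without it.

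Bacteroidaceae, which degrade complex glycans, averaged 2.33% ± 2.57 after co-housing and 7.10% ± 4.57 at weaning (log2 fold change -2.78 ± 0.79, edgeR adjusted p = 0.00593). Library 9 at weaning held 15.0%; without it the log2 fold change was -1.60 and the call was lost, with an adjusted p of 0.0810, and without library 19 it was -3.90. Sutterellaceae and Lactobacillaceae completed the families that fell. Of the 10 leading families, 4 did not pass the test. Rikenellaceae held 4.41% ± 0.850 after co-housing and 5.76% ± 1.96 at weaning (adjusted p = 0.0569), and Helicobacteraceae, Mycoplasmataceae and Marinifilaceae had adjusted p from 0.451 to 0.851 by edgeR. Helicobacteraceae had a log2 fold change of 0.33 with composition scaling. With library size scaling it was 1.15 and passed (edgeR adjusted p = 0.0445).

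Among genera, 71 of the 85 could be tested and 21 of these (29.6%) changed, 15 (21.1%) up and 6 (8.45%) down, by edgeR at an adjusted p under 0.05. The median log2 fold change of the 71 was 0.75. The libraries of the 2 times did not overlap for 8 of the 21, beside 14 (19.7%) of all 71, and 8 of the 21 were called under all 17 other settings tried. Scaling by DESeq2 size factors gave 12 up and 8 down, and scaling by library size 26 up and 6 down. The DESeq2 test gave 9 up and 10 down, and a fit to the 20 weaning and co-housing libraries 4 up and 6 down. Rises thus did not outnumber falls under every setting. Without library 19, 34 genera were called, 22 up and 12 down, among them all 21.

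**Figure D4:**
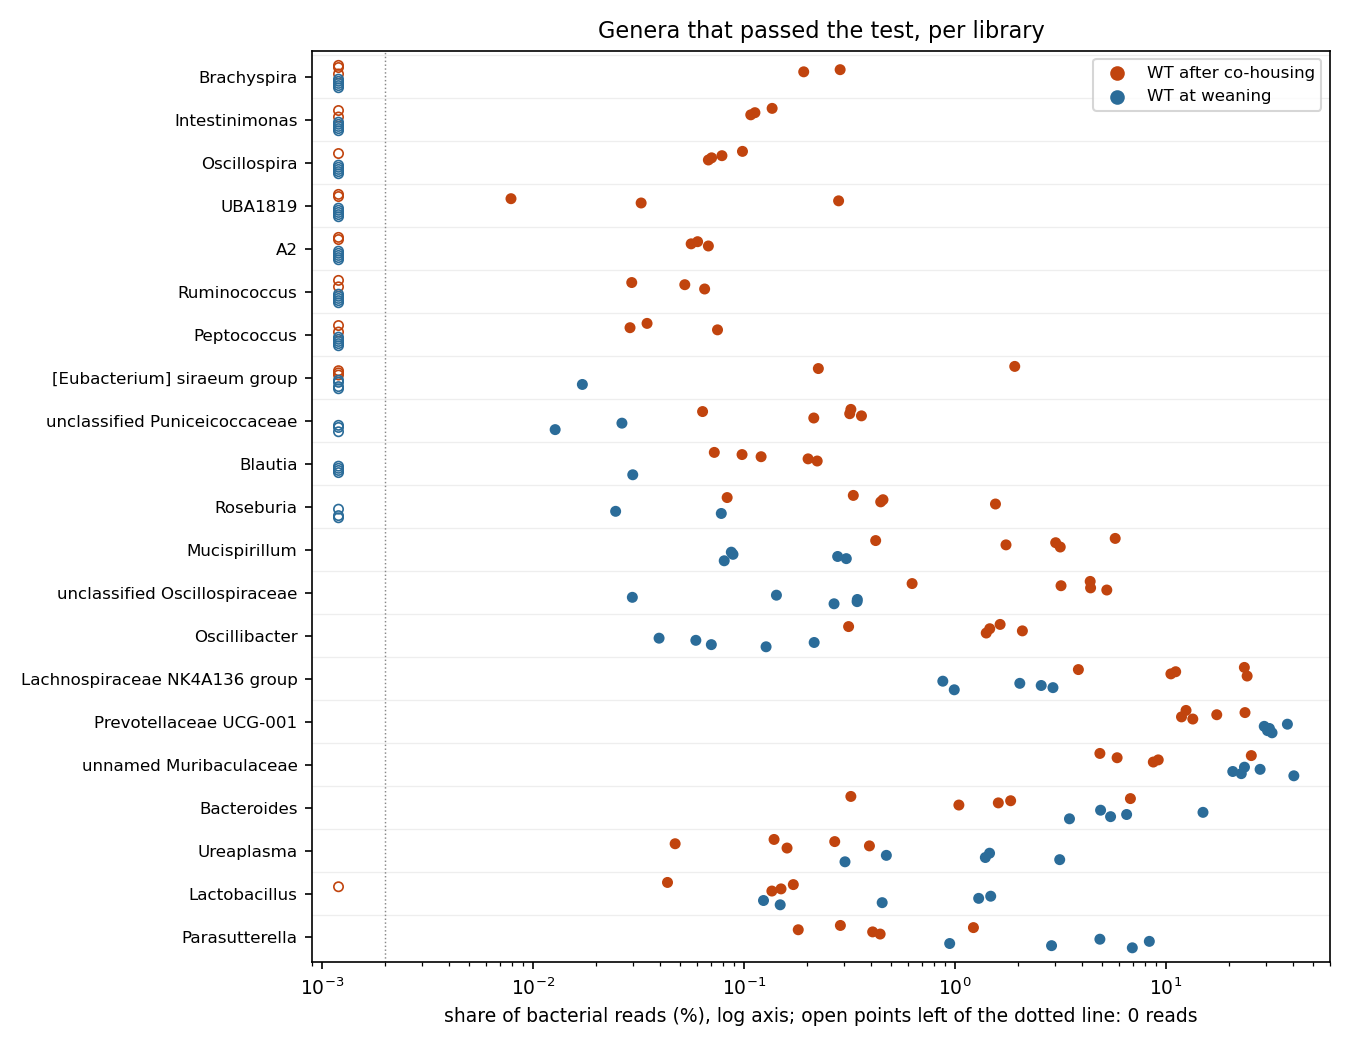
Each row is a genus that passed the edgeR test, ordered by log2 fold change from the highest at the top; points are libraries, with the share of bacterial reads (%) on a log axis and open points to the left of the dotted line for 0 reads. The 7 genera at the top have 0 reads in all weaning libraries, while the 6 at the bottom, from Prevotellaceae UCG-001 to Parasutterella, fell.

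Of the genera that fell, Parasutterella, a Burkholderiales commensal that does not ferment sugars, had the lowest log2 fold change, at -4.09 ± 0.92 (edgeR adjusted p = 0.00303). It held 0.443%, 0.409%, 0.181%, 1.23% and 0.287% of reads after co-housing, against 6.95%, 2.88%, 0.947%, 8.37% and 4.88% at weaning. The groups touched where co-housed library 19 exceeded weaning library 8. The log2 fold change was -5.09 without library 19 and -3.51 without library 9.

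Lactobacillus, which ferments sugars to lactic acid, fell by 3.85 ± 1.05 on the log2 scale (edgeR adjusted p = 0.0109). Its shares were 0.136%, 0.150%, 0 reads, 0.172% and 0.0435% after co-housing, against 0.149%, 0.453%, 0.124%, 1.30% and 1.48% at weaning. The groups overlapped through weaning libraries 6 and 8, and the log2 fold change was -3.24 without library 9.

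Ureaplasma, a bacterium without a cell wall that splits urea, fell by 3.45 ± 0.95 on the log2 scale (edgeR adjusted p = 0.0109), with 0.202% ± 0.133 after co-housing and 1.36% ± 1.13 at weaning. Prevotellaceae UCG-001, the leading genus at weaning, held 13.5%, 11.9%, 17.5%, 23.8% and 12.5% after co-housing, against 32.0%, 30.4%, 31.1%, 29.3% and 37.8% at weaning (-1.83 ± 0.53, adjusted p = 0.0120). Its groups did not overlap.

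Muribaculaceae without a genus name held 10.8% ± 8.39 of reads after co-housing and 27.2% ± 7.92 at weaning (log2 fold change -2.04 ± 0.61, edgeR adjusted p = 0.0122; -2.99 without library 19). Bacteroides moved as its family did, with a log2 fold change of -2.41 ± 0.73 (adjusted p = 0.0125), -1.56 and no call without library 9 (adjusted p = 0.0959), and -3.76 without library 19. Its named species Bacteroides acidifaciens held 1.27% ± 1.45 of reads after co-housing and 2.96% ± 1.92 at weaning, and Bacteroides sartorii averaged 0.789% after co-housing and 1.08% at weaning. Species were not tested.

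Of the genera that rose, the Lachnospiraceae NK4A136 group, named after a cultured isolate, was the most abundant. It held 24.4%, 10.6%, 11.2%, 3.86% and 23.6% of reads after co-housing, against 0.996%, 2.92%, 2.57%, 2.04% and 0.879% at weaning. The groups did not overlap. Its log2 fold change was 2.00 ± 0.75 (edgeR adjusted p = 0.0342), and the call was lost without library 6, 7, 8, 10, 16 or 20 and with 4 other settings.

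Unclassified Oscillospiraceae rose by 3.16 ± 0.83 on the log2 scale (edgeR adjusted p = 0.0109), with 5.26%, 4.41%, 3.19%, 0.629% and 4.39% after co-housing, against 0.268%, 0.345%, 0.346%, 0.0297% and 0.143% at weaning. Oscillibacter, an Oscillospiraceae genus of fermenters, rose by 2.82 ± 0.86 (adjusted p = 0.0125), with 1.39% ± 0.656 after co-housing and 0.103% ± 0.0713 at weaning. Both kept co-housed and weaning libraries apart.

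Mucispirillum, a spiral bacterium of the mucus layer, held 3.17%, 1.75%, 3.01%, 0.422% and 5.77% of reads after co-housing, against 0.0809%, 0.306%, 0.279%, 0.0890% and 0.0873% at weaning (log2 fold change 3.20 ± 0.91, edgeR adjusted p = 0.0120). Its groups did not overlap. Roseburia, a motile butyrate producer, held 1.56%, 0.446%, 0.457%, 0.0835% and 0.331% after co-housing. At weaning it had reads only in library 8 with 0.0783% and library 9 with 0.0247% (3.74 ± 1.09, adjusted p = 0.0120). The log2 fold change of Roseburia was 5.24 without library 8 and 2.99 without library 16, and both kept the call.

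Blautia, an acetate former, held 0.143% ± 0.0658 after co-housing in 5 of 5 libraries and at weaning had reads in library 6 alone, at 0.0298% (log2 fold change 3.77 ± 1.29, edgeR adjusted p = 0.0208). It had 0 reads at weaning once library 6 was left out, and its call was lost without library 7, 9 or 10. Unclassified Puniceicoccaceae, of the phylum Verrucomicrobiota, held 0.256% ± 0.120 after co-housing and 0.00785% ± 0.0118 at weaning (4.00 ± 1.35, adjusted p = 0.0195; 5.83 without library 10). The [Eubacterium] siraeum group rested on library 20, with 1.93%, and library 19, with 0.226%; it was at 0 reads in the other co-housed libraries, and the call was lost without library 20 (adjusted p = 0.108).

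For 7 of the 15 genera that rose, all weaning libraries had 0 reads, so a fold is a lower bound against 3 counts per library. Brachyspira, an anaerobic spirochaete, was found in co-housed libraries 17 (0.193%) and 18 (0.287%), at least 7.93-fold higher. Intestinimonas, a butyrate producer, was found in libraries 17, 18 and 20 at 0.108% to 0.136%, at least 5.92-fold higher, and Oscillospira in all co-housed libraries but 19 at 0.0680% to 0.0987%, at least 5.23-fold higher. UBA1819 was at least 5.33-fold higher, A2 3.06-fold, Ruminococcus 2.44-fold and Peptococcus 2.30-fold, again as lower bounds, each with reads in 3 of 5 co-housed libraries. Their edgeR adjusted p ran from 0.0143 to 0.0335. The call of UBA1819 was lost without library 17, and those of A2, Ruminococcus and Peptococcus were lost when any weaning library was left out. Ruminococcus also lost its call without library 16 or 18, and Peptococcus without library 17. In the 10 libraries, 2 of 1797 counts above 0 were a count of 1 and 17 a count of 2. Had small counts been dropped before deposit, a library at 0 could hold over 3 reads, and the bounds would overstate the fold.

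Several abundant genera did not pass the test. Mycoplasma, a parasite or commensal without a cell wall, held 4.94%, 16.4%, 18.5%, 3.73% and 10.9% of reads after co-housing, against 1.10%, 10.4%, 7.65%, 4.10% and 11.7% at weaning, with broad overlap (edgeR adjusted p = 0.744). Helicobacter, spiral bacteria of the mucus, held 6.25%, 11.7%, 8.34%, 14.1% and 6.18% after co-housing, against 1.80%, 6.85%, 7.48%, 2.07% and 2.83% at weaning (adjusted p = 0.496). Alistipes, a bile-tolerant Rikenellaceae genus, held 3.37% ± 0.679 after co-housing and 4.20% ± 2.07 at weaning (adjusted p = 0.179). The log2 fold change of Mycoplasma was -0.28 with composition scaling and 0.64 with library size scaling. Helicobacteraceae, the family of Helicobacter, passed with library size scaling, as given above.

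Other genera lay close to the threshold. Unclassified Lachnospiraceae held 4.36% ± 2.83 after co-housing and 0.565% ± 0.444 at weaning (edgeR adjusted p = 0.0527), and Colidextribacter 2.13% ± 0.737 after co-housing and 0.346% ± 0.195 at weaning (adjusted p = 0.0640). Quinella held 1.85% ± 0.762 after co-housing and 0.299% ± 0.0928 at weaning (adjusted p = 0.0608). Without library 19 their adjusted p values were 0.0329, 0.0456 and 0.0368 in this order, so each passed. The Clostridia vadinBB60 group, known from sequences alone, held 2.14% ± 0.439 after co-housing and 0.289% ± 0.356 at weaning, without overlap of the groups (edgeR adjusted p = 0.0527), and did not pass without library 19 either (0.0649). Lachnospiraceae UCG-001 held 2.19% ± 1.53 after co-housing and 0.177% ± 0.0316 at weaning, again without overlap (edgeR adjusted p = 0.0584; 0.0450 without library 19). The Rikenellaceae RC9 gut group held 0.440% ± 0.296 after co-housing and 1.00% ± 0.484 at weaning (edgeR adjusted p = 0.0658; 0.0450 without library 19).

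Farther from the threshold, Alloprevotella, a Prevotellaceae genus, held 0.699% ± 0.773 after co-housing and 1.36% ± 0.953 at weaning (edgeR adjusted p = 0.208; 0.0310 without library 19). Unclassified Desulfovibrionaceae, relatives of sulfate reducers, held 1.25% ± 0.892 after co-housing and 0.254% ± 0.141 at weaning (edgeR adjusted p = 0.179). Odoribacter, a Bacteroidales genus, held 2.15% ± 1.31 after co-housing and 1.25% ± 1.05 at weaning (edgeR adjusted p = 0.931).

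Genera were also read by group. Of 11 tested Bacteroidales genera, 0 rose and 3 fell (27.3%) by edgeR, with a median log2 fold change of -1.83, beside 0.75 over all 71 genera, of which 21.1% rose and 8.45% fell. Of 16 Lachnospiraceae genera, 4 rose (25.0%, near the share over all genera) and 0 fell (median 2.51, or 1.67 with genera at 0 reads set to their bound). Of 14 Oscillospirales genera, 7 rose (50%) and 0 fell (median 2.47, or 2.05 at the bound). Intestinimonas, Oscillospira, UBA1819 and Ruminococcus among these 7, and A2 among the Lachnospiraceae, had 0 reads in all weaning libraries. Between the WT groups such genera could only rise, so these shares overstate a group trend. The [Eubacterium] siraeum group, also among the 7, lost its call without library 20. With the same bound, the median over all 71 genera was 0.61.

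The list of butyrate-forming Clostridia overlaps the last 2 groups. Beside 21.1% of all 71 genera, 4 of its 8 tested genera rose (50%) and 0 fell (Roseburia, Oscillibacter, Intestinimonas and the [Eubacterium] siraeum group), with a median of 2.40, or 2.28 at the bound. Intestinimonas had 0 reads in all weaning libraries, and the [Eubacterium] siraeum group lost its call without library 20. Its summed share was 2.94% ± 1.36 after co-housing and 0.263% ± 0.158 at weaning (SD, n = 5 each), without overlap of the groups, at 0.781% or more against at most 0.516%.

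The lists that follow stand beside 21.1% that rose and 8.45% that fell of all 71 genera. They are small, so 1 call sets their share. Of 4 genera associated with mucus or epithelium, 1 rose (Mucispirillum, 25%, near the share over all genera) and 0 fell. Their median was -0.61, or 0.24 at the bound. Their summed share was 12.2% ± 1.99 after co-housing and 4.42% ± 2.84 at weaning. Akkermansia, a degrader of mucin, had 0 reads in all co-housed WT libraries and reads in weaning library 10 alone, at 0.0106%. Candidatus Arthromitus, the segmented filamentous bacterium that attaches to the ileum, averaged 0.0215% after co-housing and 0.0447% at weaning. Of the list of lactic acid bacteria and bifidobacteria only Lactobacillus could be tested, and it fell. Of 8 Proteobacteria and Desulfobacterota genera, 0 rose and 1 fell (Parasutterella, 12.5%, near the share over all genera), with a median of 0.95. Of 3 Erysipelotrichales genera, 0 rose and 0 fell (median -1.30), and of 2 Mycoplasmataceae genera, 0 rose and 1 fell (Ureaplasma).

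For single variants, 292 were tested in the 20 weaning and co-housing libraries, 288 of them members, and 2 (0.685%) changed by edgeR at an adjusted p under 0.05, while 96 had an unadjusted p under 0.05 (79 up and 17 down). Both were Muribaculaceae without a genus name. Row 60 held 0.653%, 0.540%, 0.0289%, 1.14% and 0.255% after co-housing, against 0 reads in all 5 weaning libraries, at least 43.3-fold higher (adjusted p = 0.0241; 30.6-fold without library 19). Row 94 ran the other way, with 0 reads after co-housing, against 0.264%, 0.466%, 0.0898%, 0.415% and 0.222% at weaning (adjusted p = 0.0475). Both calls were lost without library 6, 7, 8, 9, 10 or 16, and that of row 94 also without 17, 18 or 20. Leaving out library 19 gave 12 calls. A variant that was not called is not shown to have kept its level.

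A fit to the 10 WT libraries only, whose spread does not draw on KO libraries, called 32 of 220 variants (14.5%), 17 up and 15 down. Of the 15 that fell, 13 were Bacteroidales, with 10 Muribaculaceae, 2 Bacteroides and the leading Prevotellaceae UCG-001 variant. Of the 17 that rose, 12 were Lachnospiraceae or Oscillospiraceae, and 14 had 0 reads in all weaning libraries, as against 3 of those that fell with 0 reads after co-housing. A variant at 0 reads at one time entered this fit only through libraries of the other time, so its direction was fixed beforehand. Of all 414 members, tested or not, 94 were Bacteroidales, 132 Lachnospiraceae and 54 Oscillospiraceae. The make-up of the 220 is not given here, so these counts are no background for the 32. Of the 288 members tested in the fit to 20 libraries, 78 were Bacteroidales, 88 Lachnospiraceae and 60 Oscillospirales, the order that holds the Oscillospiraceae. Rows 60 and 94 were among the 32.

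Prevotellaceae UCG-001 row 22 was the top variant of all 5 weaning libraries. It held 13.2%, 11.7%, 17.0%, 22.9% and 12.2% of reads after co-housing, against 31.3%, 29.6%, 30.4%, 28.1% and 37.3% at weaning, without overlap. Its edgeR adjusted p was 0.305 in the fit to 20 libraries and 0.00934 in the fit to the 10 WT libraries (log2 fold change -1.74 ± 0.36). Muribaculaceae row 90 held 0.656%, 0.935%, 0.660%, 1.66% and 0.279% after co-housing, against 6.80%, 4.46%, 2.34%, 5.67% and 2.82% at weaning. It too lacked overlap, with an adjusted p of 0.0671 in the fit to 20 libraries and 0.00934 in the WT fit.

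Variants of a genus did not all run alike. In Helicobacter, row 151 held 3.69%, 7.80%, 5.11%, 6.50% and 3.51% after co-housing, against 0.545%, 3.49%, 3.22%, 0.554% and 1.40% at weaning, with no overlap. Row 153, named Helicobacter mastomyrinus, held 0.112%, 0.437%, 0.189%, 6.85% and 0.453% after co-housing, against 1.19%, 2.69%, 3.41%, 1.30% and 0.850% at weaning. All co-housed libraries but 19 were below the weaning range. Neither passed edgeR's test in the fit to 20 libraries (adjusted p = 0.470 and 0.794), and the log2 fold change of row 153 was -0.46 with library 19 and -3.14 without it.

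Other leading variants did not pass in the fit to 20 libraries. Mycoplasma row 12 held 10.9% ± 6.61 after co-housing and 7.00% ± 4.403 at weaning (edgeR adjusted p = 0.926), and Muribaculaceae row 73 held 2.27% ± 2.21 after co-housing and 2.86% ± 2.41 at weaning (edgeR adjusted p = 0.660). Helicobacter row 154 held 2.32% ± 1.12 after co-housing and 0.474% ± 0.324 at weaning (edgeR adjusted p = 0.344). Parasutterella row 424 held 0.510% ± 0.415 after co-housing and 4.71% ± 2.94 at weaning, and Bacteroides row 49 held 0.260% ± 0.192 after co-housing and 2.90% ± 3.18 at weaning. Both had an edgeR adjusted p of 0.0671 in the fit to 20 libraries, and passed in the WT fit at 0.00934 for row 424 and 0.0344 for row 49.

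In the NK4A136 group, row 246 held 0.310%, 3.97%, 3.94%, 1.61% and 11.3% after co-housing, against 0 reads, 0.281%, 0.533%, 0.148% and 0.0291% at weaning. Co-housed library 16, which held the most of this genus at 24.4%, held the least of row 246. The genus comprised 30 variants, 21 of them seen at both times and 9 after co-housing only.

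Most reads came from variants seen at both times. There were 221 such variants, and they carried 92.9% ± 3.33 of reads after co-housing and 98.7% ± 0.378 at weaning (SD, n = 5 each). The 153 variants seen after co-housing only carried 7.12% of the co-housed reads, from 3.01% to 12.1% a library. The 40 seen at weaning only carried 1.31% of the weaning reads. A core of 45 variants with reads in all 10 libraries carried 54.9% ± 12.1 after co-housing and 80.1% ± 4.76 at weaning. Of this core 33 were Bacteroidota, 5 Firmicutes and 0 Lachnospiraceae, beside 95, 279 and 132 of all 414 variants.

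**Figure D5:**
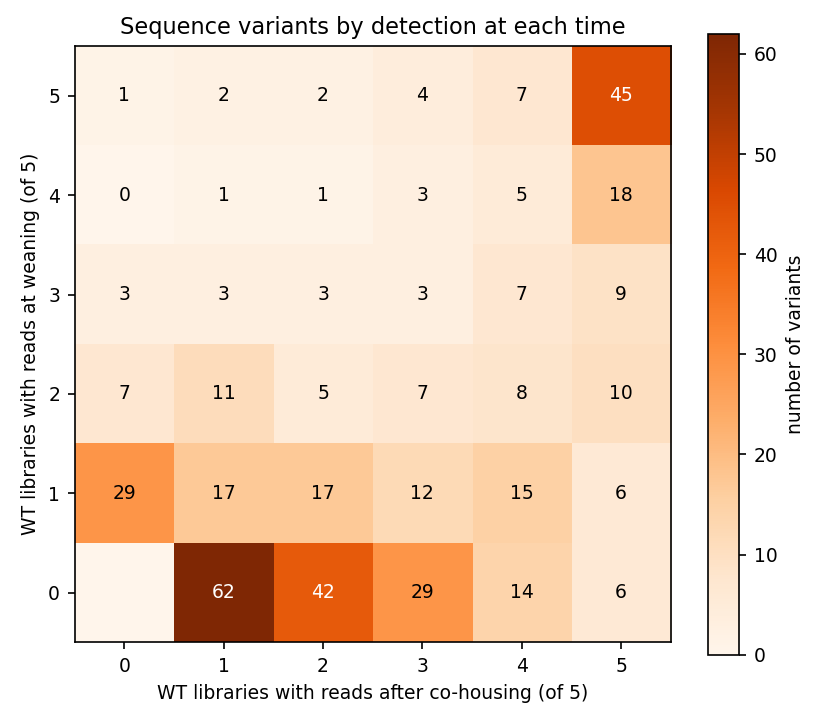
Cells count the 414 variants by the number of WT libraries with reads after co-housing (horizontal axis, 0 to 5) and at weaning (vertical axis, 0 to 5). The bottom row holds the 153 variants with 0 reads at weaning, 62 of them in a lone co-housed library, and the top right cell the 45 found in all 10 libraries.

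Of the 153 variants seen after co-housing only, 133 were Firmicutes, beside 279 of all 414 variants. By family, 69 of the 153 were Lachnospiraceae, 33 Oscillospiraceae and 8 Muribaculaceae, beside 132, 54 and 57 of all 414. Over all 414, 153 were seen after co-housing only, 221 at both times and 40 at weaning only. Of 54 Oscillospiraceae variants, 33 were seen after co-housing only, 21 at both times and 0 at weaning only. Of 132 Lachnospiraceae variants, 69 were seen after co-housing only, 57 at both times and 6 at weaning only. Of 57 Muribaculaceae variants, 8 were seen after co-housing only, 42 at both times and 7 at weaning only. In the unclassified Oscillospiraceae, 22 of 29 variants were seen after co-housing only.

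In 4 or 5 co-housed libraries and 0 weaning libraries there were 20 variants, and in 4 or 5 weaning libraries and 0 co-housed ones there was 1, row 94. Of the 20, 10 were Oscillospiraceae and 4 Lachnospiraceae, beside 54 and 132 of all 414 variants. Together the 20 carried 2.71% ± 0.969 of co-housed reads. After rarefying all libraries to 10491 reads the counts were 21 and 1. When a library was left out the cutoff of 4 libraries was kept, so the rule changed with it. Without library 19, 16 variants were in all remaining co-housed libraries and 0 weaning ones. The reverse count, of variants in 4 or 5 weaning libraries and 0 remaining co-housed ones, was 4. Without library 8, with 0 reads asked of fewer weaning libraries, the counts were 28 and 1. These settings were chosen after the data were seen. Among the 20, Oscillibacter row 484, for example, held 0.231%, 0.211%, 0.187%, 0.0982% and 0.197% after co-housing and 0 reads at weaning. The other 8 of highest mean share were unclassified Lachnospiraceae rows 306 (0.315%) and 242 (0.113%), unclassified Oscillospiraceae rows 487 (0.238%), 446 (0.135%), 447 (0.130%) and 489 (0.118%), NK4A136 group row 355 (0.225%) and Gastranaerophilales row 168 (0.159%).

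These counts were set beside the libraries of the KO mice, which shared cages with WT mice during co-housing. Of the 153 variants seen in WT mice after co-housing only, 45 (29.4%) had reads in KO libraries at weaning, 92 (60.1%) in co-housed KO libraries, and 54 in neither. Of the 40 seen in WT mice at weaning only, 11 (27.5%) had reads in KO libraries at weaning, as did 112 (50.7%) of the 221 seen at both times and 168 (40.6%) of all 414. In co-housed KO libraries 13 (32.5%) of the 40, 183 (82.8%) of the 221 and 288 (69.6%) of all 414 had reads. Of the 20 variants in 4 or 5 co-housed WT libraries and 0 at weaning, 10 had reads in KO libraries at weaning and 20 in co-housed ones. Row 60 was in 4 of 5 KO libraries at weaning, at a mean of 0.627%, while Oscillibacter row 484 was in 0 of 5. The labels link no cage to a library, so the passage of a variant between mice was not tested.

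Whether the change in WT mice differed from that in KO mice was tested by an interaction term over the 71 genera. It called 3 genera (4.23%), with 16 at an unadjusted p under 0.05. With limma-voom in place of edgeR the calls of Clostridia UCG-014 and Ureaplasma were lost. Ureaplasma held 0.202% ± 0.133 after co-housing and 1.36% ± 1.13 at weaning in WT mice, and 1.08% ± 2.07 after co-housing and 0.349% ± 0.210 at weaning in KO mice. The WT change minus the KO change was a log2 difference of -4.84 ± 1.29 (edgeR adjusted p = 0.00945). Without co-housed KO library 11 it was -2.15 and the call was lost (edgeR adjusted p = 0.253), by a setting chosen after the data were seen. Clostridia UCG-014 averaged 0.0923% after co-housing and 0.150% at weaning in WT mice, and 0.185% after co-housing against 0 reads at weaning in KO mice. Unclassified Erysipelotrichaceae averaged 0.0136% after co-housing and 0.0505% at weaning in WT mice, and 0.134% after co-housing against 0 reads at weaning in KO mice. The fitted differences of these genera rest on a group at 0 reads and give no size (edgeR adjusted p = 0.00241 and 0.00250). Leaving out library 6 gave 8 such genera, library 8 or 10 gave 6 and library 19 gave 7, and of the KO libraries leaving out 4 or 12 gave 8 and 13 gave 6. For the genera not called, a p that misses the threshold does not show that WT and KO mice changed alike.

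Reads named as mitochondria, which were left out of all totals, were 0.587%, 0.737%, 0.829%, 0.0687% and 0.820% of reads after co-housing, against 0.0383%, 0.0255%, 0.0649%, 0 and 0.0370% at weaning. Mitochondria are organelles of animal and plant cells and carry a related gene. An unclassified Rickettsiales variant, from the bacterial order closest to mitochondria, moved alike, at 0.215%, 0.131%, 0.310%, 0 reads and 0.290% after co-housing, against at most 0.0286% at weaning. Library 19 was the lowest of the co-housed group in both. Their part in the results on bacteria was not tested.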

How the data were processed

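Per the labels' protocols, stool DNA was isolated with a column kit, the V4 region was amplified over 25 PCR cycles from 10 ng of template, and paired ends of 151 bases were read. The deposited values are whole-number read counts per sequence variant and library, not normalized, with the authors' taxon names. Per the submitters' processing notes, R 4.5.1 and limma were used, without a stated role. The denoising settings, taxonomic reference and filters are not given in the sources used. Variants come without their sequences. Counts follow the number of 16S copies and PCR yield as well as cell number, so shares are relative, and fewer cells of a taxon cannot be told apart from more of the others.

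Variants were summed to genera by their genus, or where none was given by the next name above it; 93.8% of the reads of the 10 libraries had a genus name. Features with at least 10 reads in at least 3 fitted libraries were tested with edgeR 4.0.16 in R 4.3.3 (quasi-likelihood, robust, TMMwsp scaling), with Benjamini-Hochberg adjustment over all features at 0.05. The fit had 1 coefficient per group over all 30 libraries for genera and families, and over the 20 weaning and co-housing libraries for variants, since no variant with reads there had reads in the 10 re-separation libraries. Diversity, the phylum ratio and composition were compared by exact permutation tests over the 10 WT libraries, with adjustment over these 5 measures. Genus and family shares are percent of bacterial reads, computed from the deposited counts. Reads of a PCR product carry no molecular identifiers and are not independent molecules, so the floor of 3 counts covers counting error only.

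Named are all called genera, genera not called with a mean share of at least 1% in a WT group, the 10 leading families, called and leading variants, and variants in at least 4 of 5 libraries at one time and 0 at the other. Other variants named were chosen after their values were seen, as were families outside the leading 10. Members, lists and rules were chosen with earlier results of these data known. Alternatives were other scalings, no filter, DESeq2 1.42.0, limma-voom (limma 3.58.1), other sets of libraries, leaving out each of the 10 WT libraries and, for the genus interaction only and added after the data were seen, each of the 10 KO libraries of these times. The tests were checked on simulated data. Other steps used matplotlib 3.10.9, scipy 1.17.1, numpy 2.4.6 and pandas 2.3.3 in Python 3.11.15.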

Additional observations from a re-analysis of the deposited data

Results flagged for a closer look

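In 118 groups of 5 libraries that were checked, 22 had a library whose gap to the nearest of the others exceeded Dixon's 95% critical value. Chance flags about 1 in 20 such groups where values are normally distributed. Shares of reads need not be, and a group with reads in a lone library is flagged whatever the amount. That rate is thus no measure for these groups. Many of the 22 concern 1 library and nested taxa, so they are not independent. No cause of any of them was tested.

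Co-housed library 19 was the lone low or high value for the log2 ratio of Firmicutes to Bacteroidota (-2.02, others 0.54 to 1.18), unnamed Muribaculaceae (25.5%, others 4.88% to 9.23%), the family Muribaculaceae (26.5%), Bacteroides and its family (6.81%, others up to 1.84%), Parasutterella with its family and row 424 (1.23%, others up to 0.443%), Helicobacter row 153 (6.85%, others up to 0.453%) and unclassified Oscillospiraceae row 447 (0, others 0.141% to 0.197%). Among the other co-housed libraries, library 16 stood out for Roseburia (1.56%) and NK4A136 group row 355 (0.699%, others up to 0.176%), library 17 for UBA1819 (0.282%), library 18 for Gastranaerophilales row 168 (0.670%) and library 20 for the [Eubacterium] siraeum group (1.93%).

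At weaning, library 9 stood out for Bacteroides and its family (15.0%, others 3.50% to 6.54%) and for Bacteroides row 49 (8.43%, others up to 2.82%). Library 10 had the lowest inverse Simpson index (6.24, others 8.50 to 9.37). Library 8 stood out for the Clostridia vadinBB60 group (0.907%, others up to 0.204%) and the [Eubacterium] siraeum group (0.0172%), and library 6 for Blautia (0.0298%), where all other weaning libraries had 0 reads.

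The change over time differed between WT and KO mice by a fitted log2 difference (WT change minus KO change) of -10.09 for Clostridia UCG-014, -11.20 for unclassified Erysipelotrichaceae and -4.84 for Ureaplasma, whose call was lost without KO library 11; the first and second rest on KO libraries at 0 reads at weaning. Mitochondrial reads, outside the main measurement, averaged 0.608% of reads in co-housed WT libraries and 0.0332% in WT libraries at weaning.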

How the results depend on the processing

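The differences in composition, diversity and phylum ratio kept their direction and their side of the threshold under each alternative run, with composition at 27.2% (Aitchison distance) to 61.9% (families) and 43.3% to 59.2% when a library was left out. The inverse Simpson difference was 9.73 with variants and 4.53 with genera. No paired analysis was possible because the libraries of the 2 times carry no shared numbers and the labels follow no mouse.

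Against 21 genera called, library size scaling gave 32 and a fit to the 20 weaning and co-housing libraries 10 (4 up and 6 down). Leaving out a library gave 16 to 34, the highest without library 19. The 13 families became 12 to 18. Calls of variants depended most on the setting: 2 in the reported fit, 4 with library size scaling, 9 with no filter, 24 with the DESeq2 test, 56 with limma-voom, 32 with the 10 WT libraries only and 0 to 12 when a library was left out, with 12 without library 19. The 3 genera with an interaction became 8 with no filter, 8 with the DESeq2 test and 3 to 8 when a library was left out, with 8 without WT library 6 and without KO library 4 or 12. With limma-voom 2 were called, and only 1 of them was among the 3. The count of variants in 4 or 5 weaning libraries and 0 co-housed ones was 1, and 4 without library 19, when 0 reads were asked of fewer co-housed libraries. The cause of these moves was not tested. Over the 67 named features, 1138 values under alternatives held 956 on the same side of the threshold, 78 weaker, 80 stronger and 24 of opposite sign.

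The 24 concern 6 features, none of them called in the reported fit or under the setting that turned the sign. With library size scaling the log2 fold change was 0.64 for Mycoplasma, 0.78 for Odoribacter, 0.41 for Mycoplasmataceae and 0.78 for Marinifilaceae. Limma-voom gave 0.0068 for Odoribacter and 0.18 for Marinifilaceae. The fit to the 10 WT libraries gave 0.016 for Mycoplasmataceae, 0.44 for Marinifilaceae and -0.0845 for Mycoplasma row 12, and the fit to 20 libraries 0.28 for Marinifilaceae. Mycoplasma row 12 was at -0.11 with DESeq2 size factors and with the DESeq2 test, and at -0.041 with no filter. When a library was left out, Mycoplasma ran from -0.60 to 0.068, Odoribacter from -0.32 to 0.45, Marinifilaceae from -0.43 to 0.44, Mycoplasma row 12 from -0.14 to 0.52 and Helicobacter row 153 from -3.14 to 0.11. The cause was not tested.

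The 5 libraries of each group limit the precision. Shares are relative, library 19 widens the spread of the co-housed group, and without variant sequences a variant cannot be matched to a strain or a genome.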
